A study of Mus musculus with 4 samples.

Results

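Notch1, Jag1 and Dlk2 are the 3 genes described here, of the 328 genes on a targeted panel that was read in place in sections of mouse dorsal skin and buccal mucosa. The rule that chose them names the genes and uses no measured value. Notch1 encodes a Notch receptor, Jag1 encodes Jagged1, a membrane-bound ligand of that receptor, and Dlk2 encodes a membrane protein related to the Notch ligands that lacks the domain through which the classical ligands activate the receptor. Their transcripts were counted in every cell and are given by epithelial layer, by part of the hair follicle and by section.

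Notch signaling passes between touching cells. A ligand on one cell pulls on the receptor of its neighbor, proteases that include ADAM10 then cut the receptor, and its freed inner part enters the nucleus and acts on transcription. In stratified epithelium the pathway is known for its part in the step from the dividing basal layer to the differentiating suprabasal layers, in the hair follicle for its part in the matrix and in the inner layers, and in blood vessels for its part in endothelial cells. RNA level says nothing of the state of the receptor protein.

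The Xenium assay used here decodes single RNA molecules by imaging, and gives each a position, a quality score and a cell. The skin came from Tet-On mice that carried TRE-Pitx1 and Krt5-rtTA, so that doxycycline switches on Pitx1 in keratinocytes in which the Krt5 promoter is active. Littermates with these transgenes received doxycycline chow for 6 weeks from the resting (telogen) hair phase (PITX1+) or normal chow (Control). One slide held unwounded dorsal skin of males (1 Control section and 2 PITX1+ sections) and one held that of females (2 Control and 2 PITX1+ sections). A further slide held 7 sections of buccal mucosa, the lining of the cheek, from control mice, and the last one held wounds of male dorsal skin at day 4 (1 Control and 2 PITX1+ sections). Sex and slide coincide in unwounded skin, and buccal tissue and its slide cannot be told apart. The labels give the conditions of a slide but not of each section, so the sections were assigned by their order across the slide.

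The 17 sections held 2449 to 75268 cells with at least 10 transcripts. Over all their cells, before that filter, the median depth was 11 to 124 transcripts per cell, and the male Control section was the shallowest of unwounded skin, with a median of 17. In epithelial cells, the Pitx1 level was 12.2 CPM (counts of a gene scaled to the same total of panel transcripts in each sum) in the male Control section against 1058 and 838 in the male PITX1+ sections. The female sections had 59.3 and 55.7 CPM in Control and 45.3 and 77.4 CPM in PITX1+, so that Pitx1 RNA did not set the female groups apart. Pitx1 was close to background there, with 623 transcripts on the slide and 3 of the 20 negative control probes at or above that count. The female PITX1+ sections did differ from Control in other measures, with 57231 and 75268 cells against 17335 and 11778, and with 10.8% and 32.6% of epithelial cells in the matrix-like class against 0.397% to 0.579% in the 3 Control sections of both slides. Buccal section 3 held no class of epithelium and enters no epithelial comparison. Between pairs of slides, 1 to 7 cell identifiers were shared. Cell classes were rebuilt from marker genes. The buccal basal- and suprabasal-like classes held Krt4 (21408 to 124211 CPM) and almost no Krt77 (at most 11.9 CPM), and the Control skin classes the reverse (at most 122 CPM of Krt4, and 43743 to 153600 of Krt77). Krt77, a keratin of the suprabasal epidermis, reached 43743 to 75094 CPM in the basal-like class of Control skin, so the layers were less cleanly separated there than in buccal mucosa. On the female slide, nearly all cells of the suprabasal-like class were cornifying-like (838 of 856 and 561 of 592 in Control).

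Notch1 and Jag1 were measured far above the assay's background on every slide. The slide of male skin gave 31057 transcripts of Notch1, that of female skin 42352, the buccal slide 22203 and the wounded slide 26009. Jag1 had 23779, 40566, 19163 and 26032 in the same order. None of the 20 negative control probes of a slide reached these counts. Dlk2 was sparse, with 299, 3692, 616 and 477 transcripts. Of the 20 control probes, 2 reached the count of Dlk2 on the male slide and 2 on the wounded slide, and 0 on the female and buccal slides. Dlk2 stood higher in basal-like cells than in stromal and immune cells on each slide, at 239.6 against 10.7 CPM (male), 814 against 291 (female), 459 against 8.33 (buccal) and 164 against 14.6 (wounded). On the female slide 1 control probe held a mean of 41.3 CPM in the stromal and immune cells, and whether the 291 CPM of Dlk2 there is false signal or RNA of those cells was not tested. Dlk2 levels of other classes of that slide are read beside it.

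In the buccal epithelium Dlk2 was highest next to the stroma in 5 of 6 sections on either scale, and Jag1 peaked farther out than Notch1 in 6 of 6 sections per 100 cells and in 5 of 6 in CPM, sharing its bin in section 4. The distance of each epithelial cell to the nearest fibroblast- or endothelial-like cell served as its depth. Counted per 100 cells, Dlk2 was highest within 10 µm of the stroma in 5 of 6 sections, Notch1 between 10 and 20 µm in 5 of 6, and Jag1 between 20 and 30 µm in 4 sections and between 30 and 50 µm in the other 2. Notch2, the other Notch receptor on the panel, was highest between 30 and 50 µm in all 6. In CPM the peaks of Notch1 and Jag1 lay closer together. Notch1 was highest under 10 µm in 3 sections and between 10 and 20 µm in 3, and Jag1 between 10 and 20 µm in 3 and between 20 and 30 µm in 3. The mean CPM of both was highest between 10 and 20 µm, at 6722 for Notch1 and 4467 for Jag1 (4442 between 20 and 30 µm). Per 100 cells Jag1 also peaked farther out than Notch1 in unwounded PITX1+ skin. In Control skin it did not on either scale. The skin bins include follicle and sebaceous classes and follow the layers less than the buccal bins. Basal-like cells made up a mean of 37.1% under 10 µm, 43.2% between 30 and 50 µm and 29.0% beyond 50 µm in Control. In PITX1+ skin the shares were 10.05%, 8.47% and 5.97%. In CPM, Jag1 was highest under 10 µm in all 3 Control sections, and Notch1 under 10 µm in 2 and between 10 and 20 µm in 1. Per 100 cells each gene was highest in a different bin in each of the 3. In the 4 PITX1+ sections Notch1 per 100 cells was highest between 10 and 20 µm in 4 of 4 and Jag1 between 20 and 30 µm in 2, between 30 and 50 µm in 1 and beyond 50 µm in 1. In CPM Notch1 of these 4 was highest between 10 and 20 µm in 2, under 10 µm in 1 and beyond 50 µm in 1, and Jag1 between 20 and 30 µm in 2 and likewise in 1 each under 10 and beyond 50 µm.

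Dlk2 fell from 6.11 ± 2.81 transcripts per 100 cells (SD, n = 6 sections) under 10 µm to 4.29 ± 1.44 between 10 and 20 µm, 1.67 ± 0.92 between 20 and 30 µm and 0.65 ± 0.32 between 30 and 50 µm. Notch1 stood at 74.3 ± 16.6, 91.1 ± 24.6, 80.1 ± 21.7 and 46.6 ± 20.5 in the same bins, and at 11.8 ± 6.77 beyond 50 µm. Jag1 stood at 39.9 ± 13.1 under 10 µm, 84.5 ± 29.0 between 20 and 30 µm and 29.8 ± 16.3 beyond 50 µm. The spread between sections was wide, and section 1, with the highest median depth (124 transcripts per cell over all its cells), was the highest for Notch1 and Jag1 in every bin under 50 µm. In buccal mucosa the share of basal-like cells fell over the same bins, from a mean of 91.9% under 10 µm to 32.2% between 20 and 30 µm and 2.61% beyond 50 µm.

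**Figure D1:**
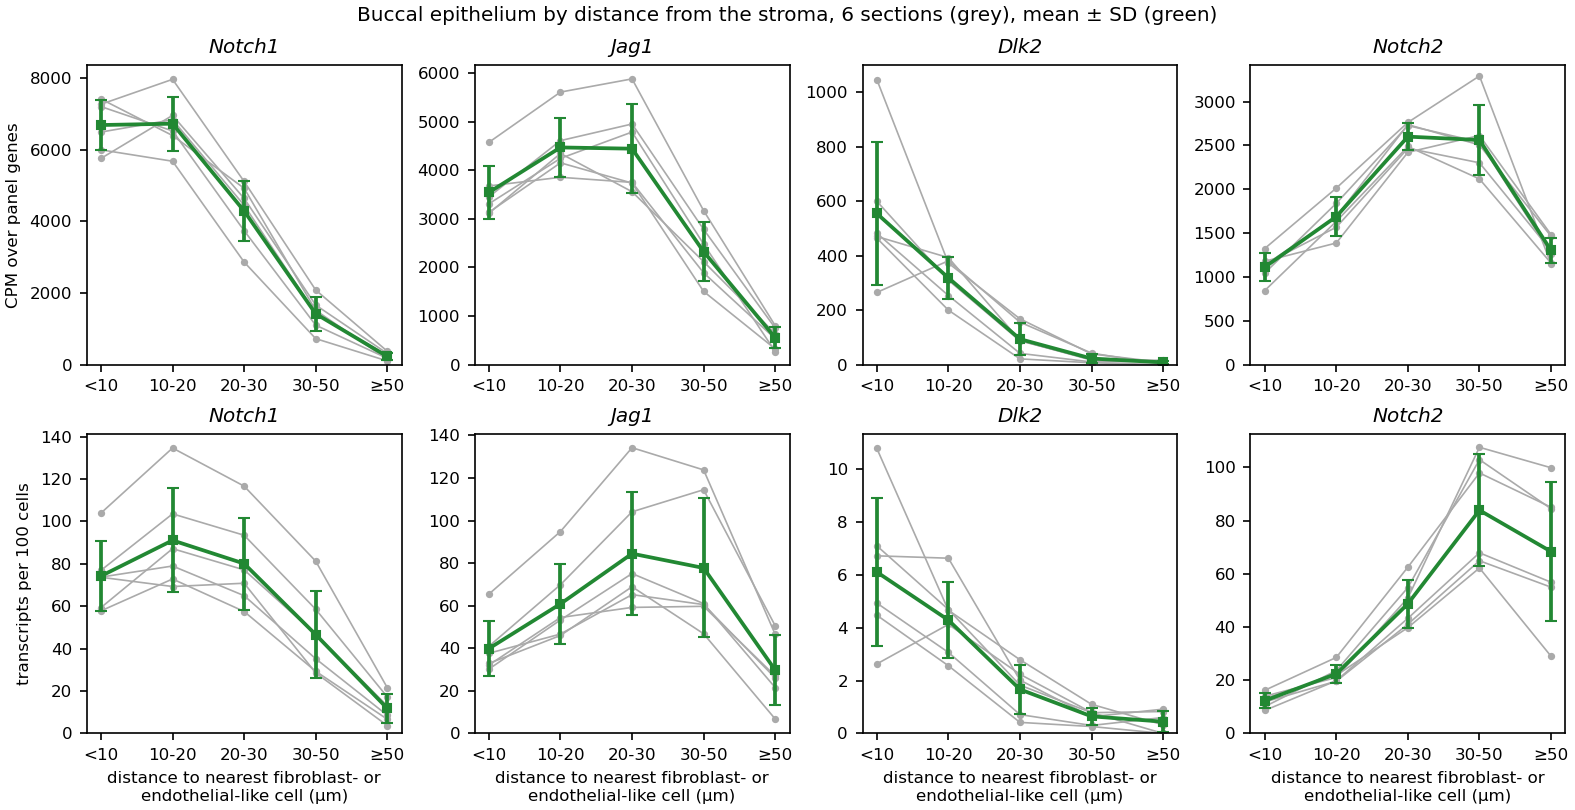
Level of Notch1, Jag1, Dlk2 and Notch2 (columns) against the distance of an epithelial cell from the nearest fibroblast- or endothelial-like cell in 5 bins (µm), as CPM over panel genes (upper row) and as transcripts per 100 cells (lower row). Grey lines are the 6 buccal sections with epithelium and the green line is their mean ± SD. Dlk2 is highest nearest the stroma on both scales. Per 100 cells Jag1 peaks farther out than Notch1, and in CPM the means of both are highest between 10 and 20 µm.

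The outer zone (30 µm or more) was then set against the inner zone (under 10 µm) within each section, with an exact two-sided sign-flip test over the 6 sections. In CPM, 78.2% of the 239 genes tested were called, each at the smallest p the design allows (0.03125, adjusted 0.0399), and the median gene fell by 1.61 on the log2 scale. Notch1 fell from 7264, 7199, 5753, 5992, 7410.35 and 6488 CPM in the inner zones to 1215, 580.3, 1066, 381, 1014 and 810 in the outer zones. The 2 zones did not overlap, and the mean log2 difference was -3.06 ± 0.60 (SD, n = 6; adjusted p = 0.0399, exact sign-flip). Dlk2 fell from 470, 482, 1046, 464, 265 and 599 CPM to 16.02, 11.0, 25.3, 2.91, 26.7 and 15.5, a log2 difference of -4.39 ± 0.80 (adjusted p = 0.0399, exact sign-flip). In the mean over sections Dlk2 and Notch1 thus moved further down than the median gene, and both were lower in the outer zone of 6 of 6 sections. In section 6 the Dlk2 values rest on 2 inner transcripts in 76 cells and 3 outer transcripts in 540 cells.

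For Jag1 the sign depended on the scale, which moved the median gene from -1.61 in CPM to 0.10 per 100 cells. In CPM it fell from a mean of 3542 to 1468 (log2 difference -1.31 ± 0.38, lower in 6 of 6 sections), which was less than the median gene, and per 100 cells it was higher in the outer zone of 6 of 6 sections (log2 difference 0.50). It lay 0.30 above the median gene in CPM and 0.40 above it per 100 cells. In single sections, Jag1 stood at 65.4, 37.7, 32.1, 30.2, 32.9 and 40.9 transcripts per 100 inner cells and at 92.2, 44.8, 48.5, 44.2, 34.8 and 88.7 per 100 outer cells. Notch1 and Dlk2 kept their direction per 100 cells, at -1.23 and -2.09 with a pseudocount of 1 transcript per 100 cells, which exceeds every outer value of Dlk2. Without a pseudocount the mean log2 ratio of Dlk2 was -3.44, on 1 to 15 outer transcripts per section. Counting only transcripts over the nucleus, Jag1 gave a log2 difference of -0.002 and the fall of Dlk2 no longer passed the threshold (-3.66, adjusted p = 0.0768).

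The cell classes gave the same order for the buccal layers. In basal-like cells of the 6 sections Notch1 ranged from 6671 through a median of 7731 to 8664 CPM, and in suprabasal-like cells from 1109 to 1760 CPM. The ranges did not overlap. With edgeR's quasi-likelihood test on the sums per section, in which 88.2% of 245 genes were called, Notch1 was 2.40-fold lower in suprabasal-like cells (log2 fold change -1.26 ± 0.08 SE, adjusted p = 3.43e-07). Dlk2 stood at 451, 379, 634, 363, 431 and 399 CPM in basal-like cells and at 14.8, 10.8, 6.59, 6.32, 20.03 and 18.1 in suprabasal-like cells. It was 15.4-fold lower there (log2 fold change -3.95 ± 0.28, adjusted p = 7.25e-07), and its suprabasal-like levels lay near the 8.33 CPM of buccal stromal and immune cells.

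Jag1 was not called between the buccal layers with TMM, and its direction and call depended on the scaling. Its level was 3838 to 5797 CPM in basal-like and 1640 to 2691 CPM in suprabasal-like cells, and with edgeR's TMM scaling its log2 fold change was 0.09 ± 0.07 (adjusted p = 0.257). With the library size as scale the log2 fold change was -1.13 and called (adjusted p = 3.45e-07), and with the number of cells it was 0.31. Each scaling moved the median of all genes alike, to -0.17 (TMM), -1.38 (library size) and 0.06 (number of cells), so that Jag1 lay 0.24 to 0.25 above the median gene under all 3. By the same measure Notch1 lay 1.09 to 1.10 below it and Dlk2 3.74 to 3.78 below it.

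In unwounded skin the layers differed for Dlk2 and by less. In basal-like cells Dlk2 stood at 451 CPM in the male Control section, at 994 and 1028 in the female Control sections, at 155 and 226 in the male PITX1+ and at 796 and 647 in the female PITX1+ sections. In suprabasal-like cells it stood at 87.4, at 435 and 209.6, at 101 and 31.9 and at 71.2 and 35.8 in the same order, lower in 7 of 7 sections. The log2 fold change was -1.41 ± 0.33 (adjusted p = 0.00609), where 44.8% of 308 genes were called. That share is set in part by construction, since the classes were named from the other genes of the panel, whereas the 3 genes took no part in the clustering. The female levels above the basal layer lay within or below the 161 to 423 CPM of the fibroblast-like cells of that slide, except for the first Control section. Without the cornifying-like clusters, which leaves the male sections, the fold change was -1.02 (adjusted p = 0.35), an alternative chosen after seeing the data.

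Notch1 in the layers of skin varied by slide and condition and was not called. It stood at 4232, 7471 and 8365 CPM in the basal-like cells of the male and the 2 female Control sections and at 1836, 4957 and 5957 in their suprabasal-like cells. In PITX1+ sections it stood at 4931 and 5217 (male) and 7179 and 4108 (female) in basal-like cells, and at 1718, 2688, 289 and 89.6 in suprabasal-like cells. The 2 female PITX1+ values were the lowest. The log2 fold change between layers was -1.06 ± 0.48 (adjusted p = 0.0922), -0.16 with Control sections alone (adjusted p = 0.634), -1.84 with PITX1+ sections alone (adjusted p = 0.0712) and -0.69 with the male slide alone (adjusted p = 0.0178), the last 3 chosen after seeing the data. Jag1 had a log2 fold change of -0.41 ± 0.38 (adjusted p = 0.386).

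The step from basal- to suprabasal-like cells was then compared between the tissues in one model with an interaction term, where 47.2% of 322 genes were called. Dlk2 fell more in buccal mucosa than in skin, by a further -2.09 ± 0.44 on the log2 scale (adjusted p = 0.00125). For Jag1 the difference was 0.93 ± 0.41 (adjusted p = 0.075) and for Notch1 it was 0.23 ± 0.53 (adjusted p = 0.742). The median gene moved by 0.23. The Krt77 of the basal-like cells of Control skin and the Dlk2 of the fibroblast-like cells of the female slide are given above, and their part in this difference was not tested.

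Buccal mucosa and Control skin were set side by side within each layer. Among basal-like cells, 64.5% of 293 genes were called. Jag1 was 1.49-fold higher in buccal mucosa (log2 fold change 0.57 ± 0.22, adjusted p = 0.0397), with 3838 to 5797 CPM in 6 buccal sections against 4232 in the male and 3993 and 3740.4 in the female Control sections. The ranges overlapped, and the call was lost with the library size as scale (0.19, adjusted p = 0.375) and when buccal section 1 (adjusted p = 0.0809), buccal section 7 (0.067) or either female Control section (0.13 and 0.0538) was left out. Notch1 had a log2 fold change of 0.59 ± 0.25 (adjusted p = 0.0603) and Dlk2 of -0.52 ± 0.32 (adjusted p = 0.175).

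Among suprabasal-like cells, 69.3% of 313 genes were called, and the median gene moved from -0.17 with TMM to -1.94 with the library size as scale. Dlk2 was 5.54-fold lower in buccal mucosa (log2 fold change -2.47 ± 0.50, adjusted p = 0.000696) and the ranges, 6.32 to 20.03 CPM against 87.4 to 435, did not overlap. Of the 3 Control values, 435 and 209.6 were from the female slide, whose stromal and immune cells held 291 CPM of Dlk2, against 8.33 CPM on the buccal slide. Against the male Control section alone (87.4 CPM, an alternative chosen after seeing the data) the log2 fold change was -1.28 and no longer called (adjusted p = 0.203). Over all sections it lay 2.30 below the median gene with TMM and 2.38 below with the library size. Jag1 had 2.502 times the Control level with TMM (log2 fold change 1.32 ± 0.29, adjusted p = 0.00135) but -0.45 on the log2 scale (adjusted p = 0.0869) with the library size, and lay 1.49 above the median gene under both. Its level in CPM, 1640 to 2691 in buccal sections, was in part below the 2588 to 3109 of Control skin. Notch1 was at 0.17 ± 0.34 (adjusted p = 0.66) with TMM and -1.60 with the library size.

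Among the classes of unwounded skin, the mean level of Notch1 was highest in the matrix-like class, named from markers of the cells that form the growing hair. Of the unwounded sections only the PITX1+ ones held it in number (1611 to 11893 cells). In these it stood at 12879 and 17334 CPM of Notch1 in the male and 14174 and 13888 in the female sections. Each lay above the 4108 to 7179 CPM of the basal-like cells of the same 4 sections. The log2 fold change was 1.1996 ± 0.35 and missed the threshold (adjusted p = 0.0748, with 10.7% of 318 genes called), and it passed with DESeq2 (1.36, adjusted p = 0.012), with the library size as scale (1.47, adjusted p = 0.0171), with other numbers of clusters and without the first female PITX1+ section. The class was mixed. One of its clusters, mostly from the female slide, was not led by Shh. In unwounded PITX1+ sections it held 449.8 to 733 CPM of Shh, against 12843 to 19150 in the Shh-led clusters. It was left without a name with 30 clusters and was named bulge-like with 60. It made up 2032 of 2856 and 6961 of 11893 matrix-like cells of the female PITX1+ sections. In the Shh-led clusters alone, an alternative chosen after seeing the data, Notch1 stood at 13192 and 17361 CPM in the male and 16569 and 15545 in the female sections, and was called against basal-like cells (log2 fold change 1.47, adjusted p = 0.0105). In the other cluster it stood at 7106 CPM in the first male and 13191 and 12693 in the female PITX1+ sections. The cycling-like cells of the PITX1+ sections held 9156 to 17824 CPM. The Control wound held 310 matrix-like cells, of which 309 in Shh-led clusters stood at 22454 CPM of Notch1 and 20016 of Jag1. Shh-led clusters of the PITX1+ wounds (368 and 54 cells) held 20271 and 14673 CPM of Notch1 and 19828 and 7198 of Jag1. In the wounds these clusters held less Shh than in unwounded PITX1+ skin, at 1638 CPM in Control and 4247 and 10520.5 in PITX1+. The wound cells thus carry the name of their clusters with less of the marker, least in Control. In unwounded PITX1+ skin Jag1 also stood higher in matrix-like cells, at 8443 to 12897 CPM against 2764 to 6869 in basal-like cells. The ranges did not overlap, and edgeR gave no call (0.83 ± 0.49, adjusted p = 0.315). In the Shh-led clusters alone Jag1 stood at 12102 to 13304 CPM and was called (1.26, adjusted p = 0.0463), and in the other cluster it stood at 5397 to 6766 CPM. Dlk2 did not, at 41.6 and 45.3 CPM in the male and 768 and 451 in the female sections (-1.42 ± 0.53, adjusted p = 0.125).

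**Figure D2:**
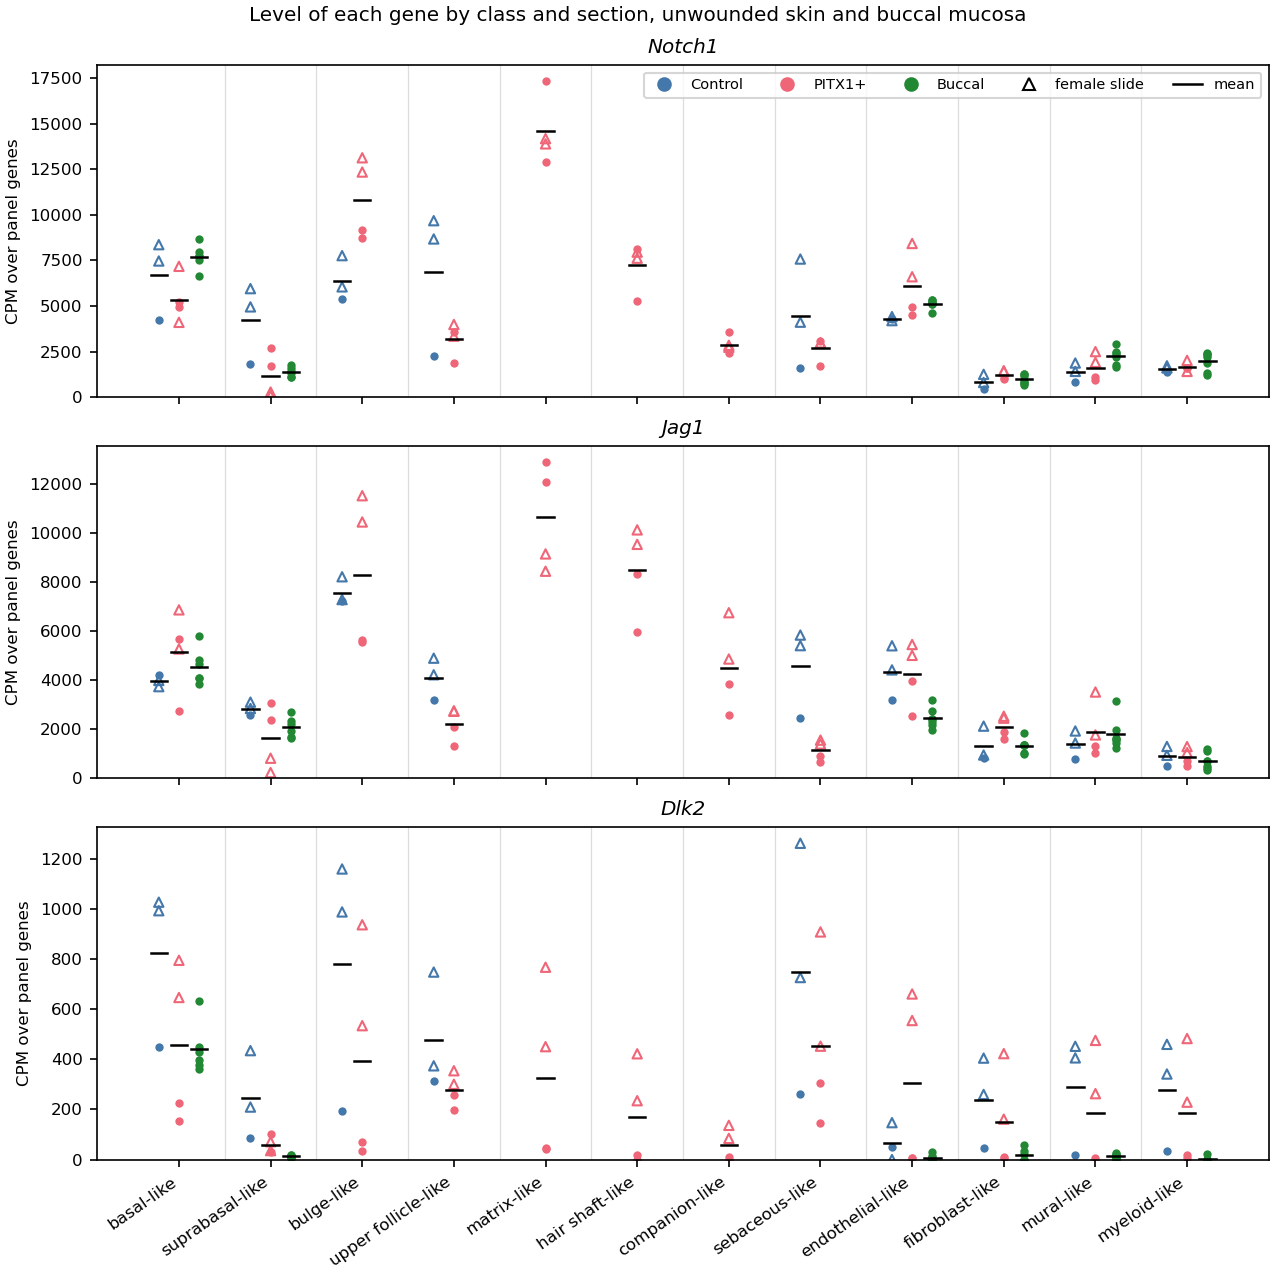
CPM over panel genes of Notch1, Jag1 and Dlk2 (panels) in 12 cell classes of unwounded skin and buccal mucosa. Each symbol is a section with at least 50 cells of the class, blue for Control, red for PITX1+ and green for buccal mucosa, open triangles for the female slide, and the bar is the mean. Among the classes drawn, which leave out the cycling-like one, the means of Notch1 and Jag1 are highest in matrix-like cells. Dlk2 is near 0 outside the epithelium except on the female slide.

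Jag1 was higher than in the basal layer in 2 of the 6 follicle classes tested and lower in 1. The bulge-like class, named from markers of follicle stem cells, held 4139 to 13204 CPM of Cd34 and 105958 to 164555 of Krt15 in Control. In PITX1+ sections it held 536 to 1908 CPM of Cd34, within the 154 to 2079 of their basal-like cells, and 29516 to 60316 of Krt15, so the name rests on other markers there. The class held 4821 and 2614 cells in the male PITX1+ sections but only 168 and 409 in the female. In this class Jag1 stood at 7220 CPM in the male Control, 8217 and 7288 in the female Control, 5567 and 5643 in the male PITX1+ and 11519 and 10450 in the female PITX1+ sections. This was 1.54-fold the basal-like level (log2 fold change 0.62 ± 0.19, adjusted p = 0.0258, 39.5% of 301 genes called), and the call was lost with the number of cells as scale and when the male Control, either female Control, the second female PITX1+ or the second male PITX1+ section was left out (adjusted p 0.0528 to 0.121). With Control sections alone it was 0.79 (adjusted p = 0.0197) and with PITX1+ sections alone 0.50 (adjusted p = 0.17), alternatives chosen after seeing the data. In hair shaft-like cells of the 4 PITX1+ sections Jag1 was 2.04-fold higher (5958 to 10127 CPM, log2 fold change 1.03 ± 0.33, adjusted p = 0.0268, 51.6% of 310 genes called), a call lost when any of the 4 was left out (log2 fold change 0.76 to 1.23, adjusted p 0.0568 to 0.116). In sebaceous-like cells it was 2.09-fold lower (674 to 5841 CPM in 7 sections, log2 fold change -1.06 ± 0.38, adjusted p = 0.0348, 52.2% of 295 genes called), and the 3 Control sections held 2443, 5411 and 5841 CPM against 674 to 1562 in the 4 PITX1+ sections. This call was lost when any of the 4 PITX1+ sections was left out (log2 fold change -0.97 to -0.77, adjusted p 0.0837 to 0.128). With PITX1+ sections alone the log2 fold change was -1.93 (adjusted p = 0.00105) and with Control sections alone it was 0.37 (adjusted p = 0.398), alternatives chosen after seeing the data, and the difference between them was not tested. The class itself differed, with 1871 to 9691 CPM of Scd2, an enzyme of lipid synthesis and one of its markers, in Control and 29758 to 36708 in PITX1+ sections.

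Notch1 in the same classes was called in 1 of 6. In sebaceous-like cells it was 1.69-fold lower than in basal-like cells (log2 fold change -0.75 ± 0.20, adjusted p = 0.00788), which did not pass with Control (-0.52, adjusted p = 0.252) or PITX1+ sections alone (-0.7525, adjusted p = 0.0589). In bulge-like cells it ranged from 5366 to 13126 CPM (0.42 ± 0.28, adjusted p = 0.273), and gave -0.17 with Control sections alone (adjusted p = 0.649) and 0.84 with PITX1+ sections alone (adjusted p = 0.0273), where the class held less Cd34 and Krt15. In upper follicle-like cells the order of conditions was the other way on the female slide, at 8678 and 9680 CPM in Control against 3351 and 3991 in PITX1+, and not on the male, at 2260.5 against 1884 and 3582. This class overlapped between conditions in its marker Krt79 but not in other genes. Krt77 stood at 10367 to 19841 CPM in Control and 1727 to 5148 in PITX1+ sections, and Scd2 at 1070 to 1906 and 7144 to 12059. Across both conditions the upper follicle gave -0.18 ± 0.20 (adjusted p = 0.474, 45.2% of 299 genes called).

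Dlk2 was lower in companion-like than in basal-like cells and close to the basal-like level in sebaceous-like cells. The companion-like class held 2475 to 10995 CPM of its marker Krt75, no more than the 2009 to 11418 of PITX1+ bulge-like cells. It also held 49857 to 63015 CPM of Krt79, a marker of the upper follicle, so its name is uncertain. In companion-like cells of the 4 PITX1+ sections Dlk2 stood at 11.9 and 0 CPM (male) and 84.6 and 137 CPM (female). This was 5.83-fold below the basal-like level (log2 fold change -2.54 ± 0.51, adjusted p = 0.00205 by edgeR, 57.6% of 297 genes called). In sebaceous-like cells it held 260 to 1263 CPM in Control and 146 to 909 in PITX1+ sections, with a log2 fold change of -0.05 ± 0.32 (adjusted p = 0.899). The male bulge-like cells held 195 CPM in Control and 70.5 and 32.8 in PITX1+, below the 451, 155 and 226 of the basal-like cells of the same sections. Over all 7 sections the bulge gave -0.84 ± 0.34 (adjusted p = 0.073).

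In unwounded skin the classes that held the transcripts of Notch1 differed between Control and PITX1+ sections. Matrix-like cells held 18.2% and 23.4% of the Notch1 transcripts of the male PITX1+ sections and 19.3% and 45.9% of those of the female, against 0.2% in each Control section. The share of the class among the cells of a section moved with it, at 5.92% and 5.75% in the male and 4.99% and 15.8% in the female PITX1+ sections against 0.15% to 0.246% in Control, and most matrix-like cells of the female sections were of the cluster not led by Shh. Basal-like cells held 20.7%, 49.5% and 54.3% of Notch1 in Control and 2.3% to 13.8% in PITX1+. In buccal mucosa the suprabasal-like cells held 32.1% to 56.6% of Jag1 transcripts and the basal-like cells 77.3% to 92.0% of Dlk2 transcripts in 5 of 6 sections. Of the epithelial cells of the 6 sections, 52.5% to 63.6% were suprabasal-like and 35.5% to 46.5% basal-like. The CPM of Jag1 was lower in suprabasal- than in basal-like cells, as given above, so its share does not mark a higher level there. In section 6, which alone held many salivary-like cells (2589), these cells held 46.8% of its Dlk2 transcripts (29 transcripts, 96.2 CPM) and the basal-like cells 38.7%.

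**Figure D3:**
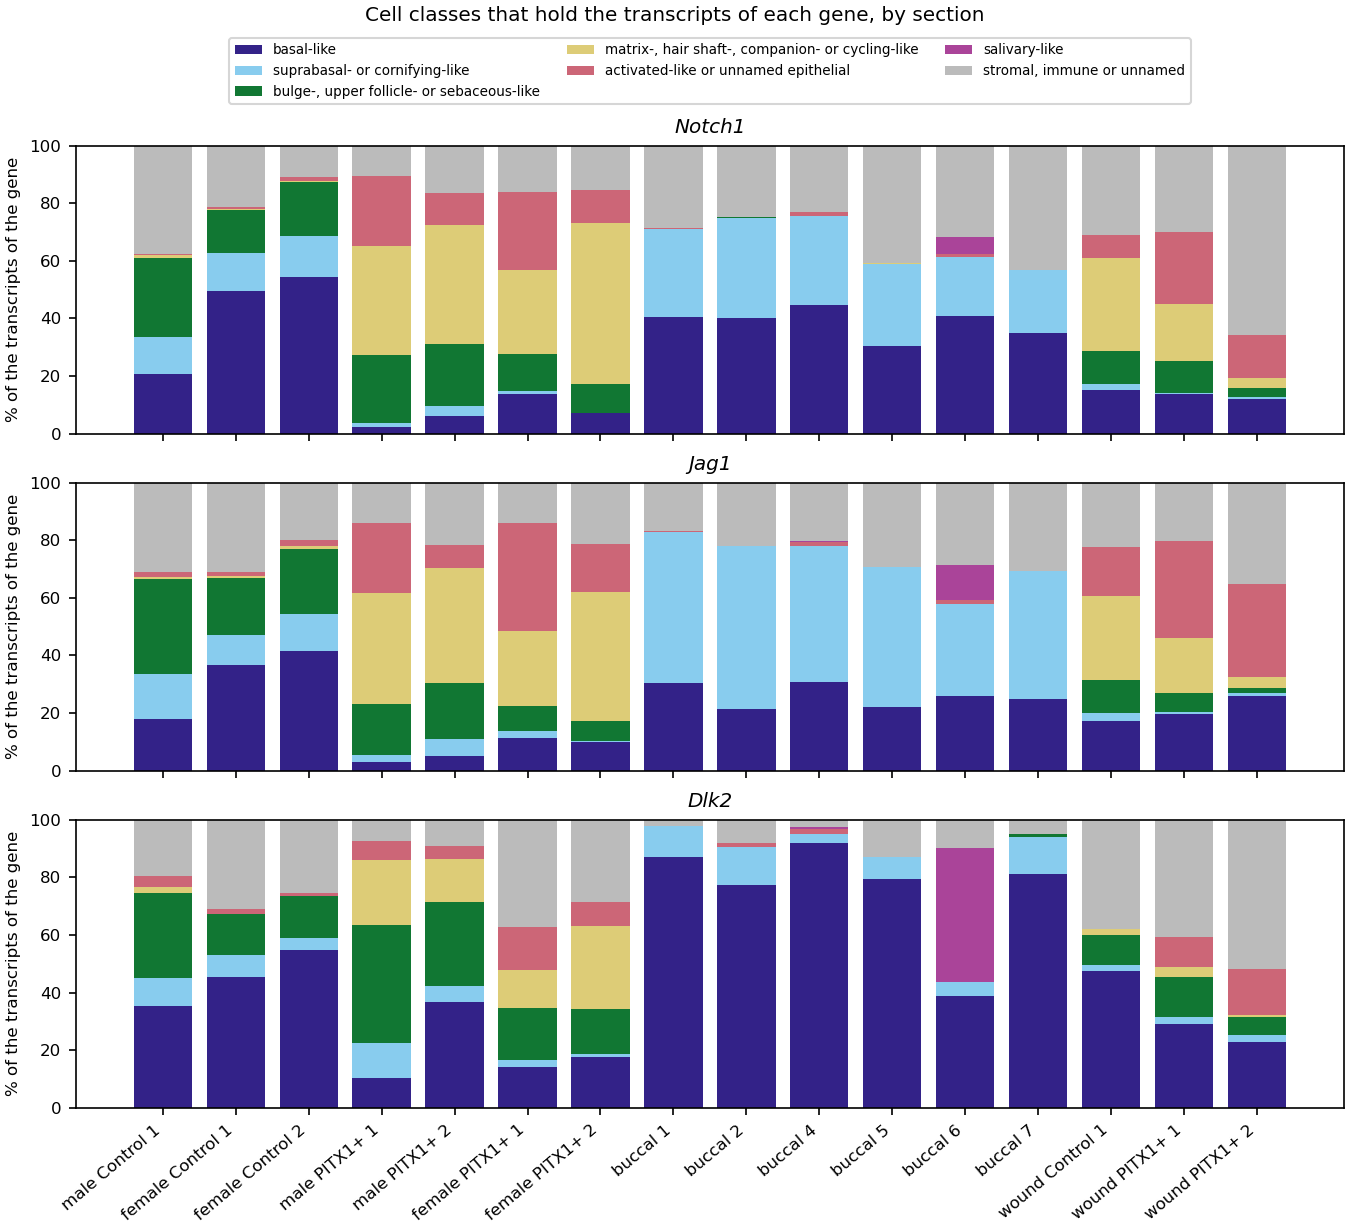
Percent of the transcripts of Notch1, Jag1 and Dlk2 (panels) held by groups of cell classes (colors) in each section with epithelium (bars). In buccal sections basal-like cells hold 77.3% to 92.0% of Dlk2 except in section 6, and the PITX1+ sections show the large share of Notch1 and Jag1 in matrix-, hair shaft-, companion- and cycling-like cells.

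Dlk2 was lower in the epithelium of PITX1+ than of Control skin. Over all epithelial cells it stood at 250.5 CPM in the male Control against 53.4 and 69.6 in the male PITX1+ sections, and at 858 and 798 in the female Control against 351 and 302 in the female PITX1+ sections. Conditions did not overlap within either slide. The female PITX1+ values lay near the 291 CPM of the stromal and immune cells of that slide. With the slide in the model it was 2.98-fold lower (log2 fold change -1.58 ± 0.34, adjusted p = 0.0159, 25.9% of 328 genes called). Without the slide the estimate was -1.53 (adjusted p = 0.259), and without the second female PITX1+ section it was -1.63 (adjusted p = 0.0598). With the number of cells as scale it was -0.57 (adjusted p = 0.306), on which the median gene rose by 0.92. The share of basal-like cells among epithelial cells moved with it, from 21.1% to 7.11% and 15.7% on the male slide and from 51.0% and 49.7% to 11.3% and 10.46% on the female. In sums over the epithelium, fewer basal-like cells and less Dlk2 per cell cannot be told apart. Within basal-like cells the log2 fold change of Dlk2 was -0.74 ± 0.32 (adjusted p = 0.205), in a comparison that called 0% of 320 genes by edgeR. At an unadjusted p under 0.05 edgeR counted 81 genes there, Dlk2 not among them, and DESeq2 called 41 genes after adjustment.

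With edgeR and all sections, Notch1 and Jag1 were not called between conditions in the whole epithelium or in either layer. Over all epithelial cells Jag1 stood at 3978 CPM in the male Control against 6035 and 5309 in the male PITX1+ and in female skin at 4233 and 4128 in Control and at 5138 and 4891 in PITX1+, higher in 4 of 4 PITX1+ sections than in their Controls (log2 fold change 0.39 ± 0.20, adjusted p = 0.17). In CPM Notch1 lay in opposite order on the slides, at 3110 in Control against 7391 and 8658 in PITX1+ males and at 6726 and 7815 against 4338 and 5674 in females. Counted per 100 cells the female sections overlapped, at 39.7 and 42.1 in Control and 39.5 and 54.8 in PITX1+, while the male ones stood at 10.63 against 61.9 and 95.4. Jag1 per 100 cells was at 13.6 in the male Control and 25 and 22.2 in the female ones, against 50.6, 58.5, 46.8 and 47.2 in PITX1+. With the number of cells as scale the log2 fold change was 1.121 for Notch1 and 1.38 for Jag1, where the median gene rose by 0.92, and relative to the median gene it was 0.21 and 0.46, against 0.26 and 0.43 with TMM. The pooled log2 fold change of Notch1 was 0.21 ± 0.32 (adjusted p = 0.629 by edgeR). For Notch1 the difference between the slides in the effect was 1.25 ± 0.40 on the log2 scale. It did not pass after adjustment (adjusted p = 0.158 by edgeR, 4.57% of 328 genes called). Its male side holds a single Control section, the shallowest of unwounded skin, and without it the difference could not be fitted.

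In suprabasal-like cells Notch1 was at 1836, 4957 and 5957 CPM in Control and at 1718, 2688, 289 and 89.6 in PITX1+ sections. The log2 fold change was -2.12 ± 0.84 (adjusted p = 0.165), in a comparison where 0.348% of 287 genes (1 gene) were called by edgeR and 59 by DESeq2. Without the male Control section it was -3.20 (adjusted p = 0.000414 by edgeR), and DESeq2 gave -2.17 (adjusted p = 0.00385). With the library size as scale it was -3.44 and with the number of cells -2.05, where 39 and 31 genes were called. Notch1 lay 2.13 below the median gene with TMM, 2.35 below with the library size and 2.31 below with the number of cells. The low CPM values were those of female PITX1+ (289 and 89.6, against 4957 and 5957 in female Control), and the male values overlapped. On the female slide the class was almost wholly cornifying-like in both conditions (838 of 856 and 561 of 592 cells in Control). Its markers still differed between conditions over both slides. Flg stood at 9520 to 18272 CPM in Control and 36520 to 132292 in PITX1+ sections, and Krt77 at 119755 to 153600 and 13582 to 96540. The part of this in the Notch1 difference was not tested. Jag1 had -0.54 ± 0.44 (adjusted p = 0.466) and Dlk2 -0.82 ± 0.44 (adjusted p = 0.275).

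Endothelial-like cells were the class outside the epithelium with the highest Notch1. Their Pecam1 stood at 17131 to 39284 CPM and their Krt5 at 206 to 1951 CPM. Notch1 in this class was at 4270, 4423 and 4204 CPM in Control, at 4493 and 4966 (male) and 8431 and 6608 (female) in PITX1+ skin, and at 4648 to 5344 in the 7 buccal sections. All 4 PITX1+ values exceeded all 3 Control values, and how many of all genes did so was not counted. The log2 fold change of 0.36 ± 0.27 was not called (adjusted p = 0.532, 1.41% of 213 genes called). The 2 female Control sections held few such cells (221 and 73). Jag1 was at 3190 to 5405 CPM in Control and 2535 to 5457 in PITX1+ (-0.03 ± 0.28, adjusted p = 0.958), and at 1981 to 3203 CPM in buccal mucosa. Fibroblast-like cells held 441 to 1457 CPM of Notch1 in unwounded skin and 702 to 1291 in buccal mucosa. Dlk2 was at 0 to 29.9 CPM in buccal endothelial-like cells and at 5.00 to 51.4 CPM in those of the male slide. In the female PITX1+ sections it stood at 661 and 555 CPM, near the 796 and 647 of the basal-like cells, and it was too sparse over all sections to be tested.

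**Figure D4:**
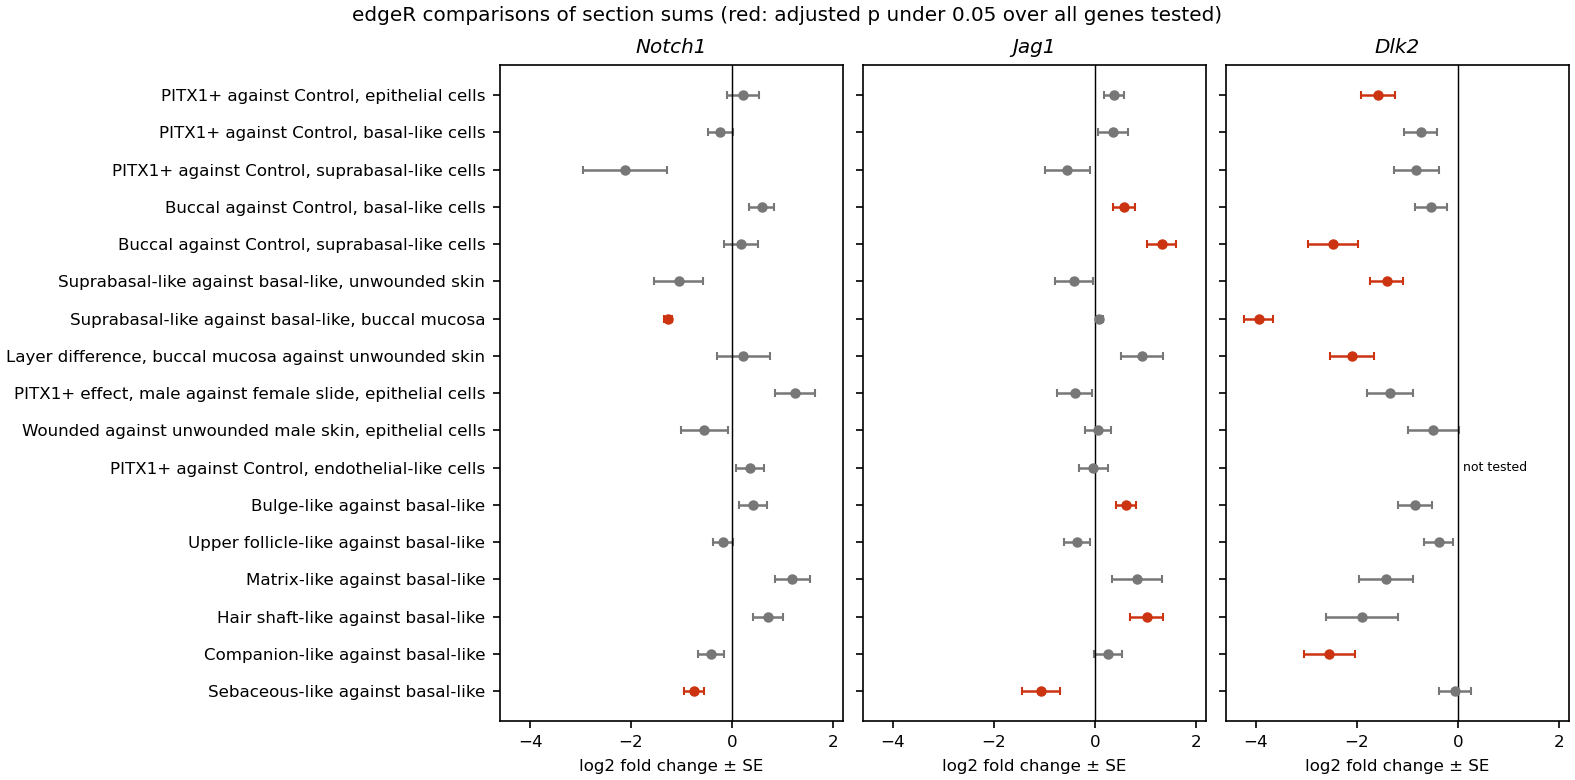
Log2 fold change ± SE of Notch1, Jag1 and Dlk2 (panels) in the 17 edgeR comparisons, red where the adjusted p is under 0.05. Dlk2 is lower above the basal layer, in buccal suprabasal-like cells, in companion-like cells and in PITX1+ epithelium, Jag1 is higher in bulge- and hair shaft-like cells and in both buccal layers against Control (in the suprabasal-like one 1.32, and -0.45 with library size as scale), and Notch1 is lower in the buccal suprabasal-like against the basal-like layer. Notch1 and Jag1 are lower in sebaceous-like cells (-0.75 and -1.06), where Jag1 is at 0.37 with Control sections alone.

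In day-4 wounds the basal-like cells held 5646 CPM of Jag1 in Control and 6316 and 8342 in PITX1+, and those of the unwounded male sections held 4232, 5676 and 2764. The activated-like cells, named from markers such as Krt16, Stfa3, Sprr1b and S100a8, which injured epidermis is known to induce, held 3284, 4277 and 4302 CPM of Jag1 and 826, 1498 and 1252 CPM of Notch1 in the 3 wounds. Their 13.1%, 19.7% and 24.5% share of all Jag1 transcripts stood beside 3.3% and 0.2% in unwounded male and 9.12% and 5.93% in unwounded female PITX1+ skin. The class made up 3.95%, 5.89% and 4.93% of the cells of the wounds, 1.28% and 0.136% of the male and 2.92% and 3.52% of the female unwounded PITX1+ sections. Notch1 in the basal-like cells of wounds was at 5060 CPM in Control and 4472 and 3832 in PITX1+. Over all epithelial cells Notch1 was at 4727 CPM in the Control wound against 3110 in unwounded male Control skin, and at 4191 and 2147 in the PITX1+ wounds against 7391 and 8658 in unwounded male PITX1+ skin. The order thus differed by condition, which was not tested, and with the condition in the model wounds were not called (log2 fold change -0.55 ± 0.46, adjusted p = 0.454, 1.83% of 327 genes called). Jag1 gave 0.06 ± 0.26 (adjusted p = 0.855) and Dlk2 -0.48 ± 0.51 (adjusted p = 0.535). Wounds and unwounded skin were on different slides.

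The panel held 2 further genes of the pathway, the receptor Notch2 and the protease Adam10. Notch2 ran opposite to Notch1 and Dlk2 across the buccal layers. It was higher in suprabasal- than in basal-like cells of buccal mucosa (log2 fold change 2.25 ± 0.10, adjusted p = 3.12e-08) and of skin (1.66 ± 0.27, adjusted p = 0.00116), and more so in buccal mucosa (difference 1.02 ± 0.26, adjusted p = 0.00494). Its level reached 11654 to 14006 CPM in hair shaft-like cells (3.14 ± 0.32 against basal-like, adjusted p = 9.77e-05). Adam10 was higher in buccal mucosa than in Control skin, in basal-like (1.68 ± 0.25, adjusted p = 0.000204) and in suprabasal-like cells (2.33 ± 0.29, adjusted p = 1.22e-05), and in PITX1+ epithelium (0.86 ± 0.23, adjusted p = 0.0318). Of the 17 edgeR comparisons, in which 0% to 88.2% of all genes were called, Notch2 and Adam10 were called in 8 and 7. Under the alternatives the 8 called results of Adam10, the zones included, lost the call in 42 of 134 and changed sign in 2, and the 9 of Notch2 lost it in 20 of 156 and changed sign in 1.

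Across 151 sums of class and section from 14 sections of unwounded tissue, the panel genes most like Notch1 in log2 level were Itga3 (Pearson r = 0.64), Lama5 (0.64) and Efnb1 (0.60), and Jag1 came next (0.59). Those most like Jag1 were Efnb1 (0.73), Lama5 (0.66) and Cdh3 (0.62), and those most like Dlk2 were Fcgbp (0.70), Atoh1 (0.68) and Wnt7a (0.67). Dlk2 correlated with Notch1 at 0.35 and with Jag1 at 0.34, and ran opposite to Adam10 (r = -0.50). The sums share slides, sections and depth, so these values describe the points and carry no test.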

How the data were processed

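Sections of 5 µm from fixed, embedded dorsal skin and buccal mucosa were imaged on the Xenium platform with a custom panel. The deposited files list each transcript with its gene, position, cell and a quality score, and each cell with its transcript counts and position. The authors' instrument software decoded the transcripts and outlined the cells, and the scores and counts were deposited as it wrote them. Aligner and genome build are not given in the sources used here. The recount of transcripts matched the deposited counts in 100% of cells, and 1 to 7 cell identifiers recurred between slides, where they are assigned anew.

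Counting per gene and cell was limited to transcripts whose quality score reached 20, and to cells that held 10 or more of them. Cells closer than 100 µm (200 µm on the wounded slide) were chained into sections of at least 2000 cells, ordered by mean x. The first section of each slide with 3 skin sections, and the first 2 of the slide with 4, were taken as Control. The cells were grouped by k-means into 45 clusters on 40 principal components, and the epithelial cells again into 30. Notch1, Jag1, Dlk2, Notch2, Adam10 and Pitx1, 6 genes, took no part. Among classes with at least 3 markers raised 1.5-fold, a cluster was named for the one best represented in its top 10 genes, and was left unnamed where any class outside these was better represented there. Suprabasal-like cells include cornifying-like ones, since the female slide has few others. No doublet caller was run.

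Since cells are not replicates, the counts of a class were added up within each section that held at least 50 of its cells. The study counts the skin sections by mice and the buccal sections by mucosae, and whether each buccal section is another animal is not given in the sources used here, so that p-values over them measure the spread between sections. Sums were tested with edgeR's quasi-likelihood test (TMM, filterByExpr) over all panel genes, with Benjamini-Hochberg adjustment and a threshold of 0.05, with slide as a covariate between conditions and section as a block between classes. Zones were compared in log2(CPM + 10), or per 100 cells with 1 added, over genes with at least 100 transcripts. CPM is a share of the transcripts of the panel, so that a rise of a few abundant keratins lowers the CPM of other genes. Where ranges are said not to overlap, the share of all genes without overlap was not counted, so this describes the values only. For part of the comparisons the edgeR step was tested on simulated data of the same size. All genes shared a common dispersion there, and 200 genes were changed, as many up as down. In these data 31.6% to 100% of 1-log2 and 92.9% to 100% of 2-log2 differences were called, and 0.862% to 2.34% of unaltered genes. Dispersion that varies by gene and changes mainly in 1 direction were not simulated.

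The genes named are the 3 members, Notch2 and Adam10 as the other pathway genes of the panel, Pitx1, and the 3 genes most correlated with each member. The rule names the members and uses no value, but it and the lists were set with earlier results of these data known. Alternatives were library size or cell number as scale, DESeq2, no gene filter, nuclear transcripts, any quality, at least 20 transcripts per cell, 30 or 60 clusters, no slide covariate, no block and each section left out. Tools were Python 3.11.15, numpy 2.4.6, scipy 1.17.1, pandas 2.3.3, scikit-learn 1.9.0, R 4.3.3, edgeR 4.0.16 and DESeq2 1.42.0.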

Additional observations from a re-analysis of the deposited data

Results flagged for a closer look

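Of 42 groups of 4 to 10 sections looked at, 3 held a section far from the others, and chance alone is taken to mark about 1 in 20. Dlk2 in the basal-like cells of buccal section 4 stood at 634.3 CPM against 362.8 to 451.1 in the other 5 sections. Notch1 in the endothelial-like cells of buccal section 2 stood at 4648 CPM against 5118 to 5344 in the other sections. Notch1 in the sebaceous-like cells of the first male PITX1+ section stood at 1730 CPM against 2976 to 3062 in the other PITX1+ sections.

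The step from basal- to suprabasal-like cells differed between buccal mucosa and unwounded skin by edgeR's interaction term. It was lower in buccal mucosa for Dlk2 (log2 difference -2.094, adjusted p = 0.00125). It was higher there for Notch2 (1.021, adjusted p = 0.00494), Adam10 (0.6753, adjusted p = 0.0342) and Pitx1 (3.006, adjusted p = 0.000288). The effect of PITX1+ on the RNA of Pitx1 itself differed between the male and the female slide (5.525, adjusted p = 0.0172 by edgeR).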

How the results depend on the processing

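Values below are log2 fold changes with edgeR's adjusted p where a call changed. For Notch1, Jag1 and Dlk2, 53 results were recomputed under 901 alternatives: 731 kept direction and side of the threshold, 59 lost a call, 58 gained one and 53 changed sign. Part of the changes of sign came with a change of scale, which also moved the median gene of the comparison. The cause of these shifts was not tested.

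With the number of cells as scale, Dlk2 in PITX1+ epithelium was at -0.57 (0.306), Jag1 in the bulge at 0.29 (0.547) and Jag1 in the hair shaft at 0.94 (0.12). With this scale the median gene rose to 0.44 in PITX1+ basal-like cells, 0.53 in buccal against Control basal-like cells and 1.28 between slides, and relative to it Notch1 (-0.08 with TMM, -0.05 with cells), Dlk2 (-0.25, -0.40) and Jag1 (-0.23, -0.27) kept their sign in those 3. Unadjusted for that, signs turned for Notch1 in PITX1+ basal-like cells (0.39), Dlk2 in buccal against Control basal-like cells (0.13), the difference between slides for Jag1 (1.01) and Dlk2 (0.11), wounds for Notch1 (0.16) and Dlk2 (0.30), Jag1 in endothelial-like cells (0.75), Notch2 in the upper follicle (-0.22) and Notch1 in the companion layer (0.027). With the library size as scale, Jag1 was at 0.19 (0.375) in buccal against Control basal-like cells, at -0.45 (0.0869) in the suprabasal-like ones, at -1.13 (3.45e-07) between buccal layers and at 0.77 (0.0862) in the hair shaft. Notch1 was at -1.60 (0.00045) in buccal against Control suprabasal-like cells and at -0.56 for the layer difference. Between buccal layers Adam10 was at -0.995 (4.9e-06) and Pitx1 at -0.49 (0.00723). Jag1 was at 0.25 for the difference between slides, -0.11 in wounds, 0.11 in endothelial-like cells and -0.20 in the companion layer.

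Among the genes called, 48.2% were higher in PITX1+ epithelium with TMM, 42.7% with library size and 95.1% with cells. In the same order the share was 46.0%, 35.8% and 63.2% for buccal against Control basal-like cells, 49.8%, 19.2% and 58.3% for suprabasal-like ones, 47.1%, 17.2% and 36.3% between skin layers, 45.8%, 26.6% and 50.5% between buccal layers, 61.2%, 40.6% and 63.8% for the layer difference, and 20%, 52.9% and 84.8% between slides. It was 46.2%, 55.8% and 23.8% in the bulge, 46.7%, 31.1% and 15.5% in the upper follicle, 38.2%, 53.7% and 50% in the matrix, 42.7%, 27.7% and 54.5% in the companion layer and 40.9%, 36.1% and 19.5% in the sebaceous gland. DESeq2 called 179 genes against 85 by edgeR in PITX1+ epithelium, 41 against 0 in basal-like, 59 against 1 in suprabasal-like, 8 against 3 in endothelial-like and 99 against 34 in matrix-like cells, 30 against 15 between slides and 75 against 6 in wounds.

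Without the slide covariate, Dlk2 in PITX1+ epithelium was at -1.53 (0.259). Nuclear transcripts gave 0.11 for Notch1 in PITX1+ basal-like cells, 0.32 (0.174) for Jag1 in buccal against Control basal-like cells, 0.0404 for Jag1 in endothelial-like cells, 0.19 for Dlk2 in the sebaceous gland, and -0.0022 (1) for Jag1 and -3.66 (0.0768) for Dlk2 between zones. Dlk2 in suprabasal-like cells was too sparse for this setting in buccal against Control. DESeq2 gave -0.17 for Notch1 in buccal against Control suprabasal-like cells and 0.0804 for Dlk2 in the sebaceous gland. Any quality gave -0.12 for Jag1 between buccal layers, -0.28 for Notch1 in the layer difference and -1.03 (0.0537) for Jag1 in the sebaceous gland. With 30 clusters, Notch1 was at -0.22 in the layer difference, 0.0124 in the upper follicle and 0.46 in the companion layer, Jag1 at 0.14 in endothelial-like cells and -0.80 (0.145) in the sebaceous gland, and Dlk2 at 0.16 there. With 60 clusters, Jag1 was at 0.76 (0.0532) in the bulge and -0.86 (0.0762) in the sebaceous gland, and Notch1 at 0.27 in the companion layer. No gene filter gave 0.096 for Jag1 in endothelial-like cells, and at least 20 transcripts per cell gave 0.17 for it and 0.0914 for Dlk2 in the sebaceous gland. Of the alternatives chosen after seeing the data, Control sections alone gave 0.0903 for Jag1 between skin layers, Dlk2 there was at -1.02 (0.35) without cornifying-like clusters and -1.36 (0.0593) on the male slide, Dlk2 in buccal against Control suprabasal-like cells was at -1.28 (0.203) with the male Control alone, Jag1 was at 0.50 (0.17) in the bulge with PITX1+ alone and 0.37 (0.398) in the sebaceous gland with Control alone, Notch1 was at -0.17 in the bulge with Control alone and at -0.52 (0.252) and -0.7525 (0.0589) in the sebaceous gland with Control and PITX1+ alone, Dlk2 there was at 0.11 with PITX1+ alone, and per 100 cells Jag1 and Adam10 between zones were at 0.50 (0.0415) and 0.45 (0.0751).

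Without the replicate block, the section, Jag1 was at 0.59 (0.113) in the bulge, 0.97 (0.0667) in the hair shaft and -0.90 (0.0897) in the sebaceous gland, and Notch1 was at -0.72 (0.0692) in the sebaceous gland. No other call of a member was lost without the block. Between conditions, slides share replicate numbers in name only, and no pairing was used.

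With each section left out in turn, Notch1 ranged from -0.25 (without the male Control) to 0.46 in PITX1+ epithelium, -0.31 to 0.0086 in PITX1+ basal-like cells and -0.27 to 0.34 in the layer difference. Jag1 ranged from 0.49 to 0.76 in buccal against Control basal-like cells, -0.0928 to 0.19 in wounds, -0.13 to 0.11 in endothelial-like cells, 0.59 to 0.75 in the bulge, 0.76 to 1.23 in the hair shaft, -0.0287 to 0.49 in the companion layer and -1.29 to -0.77 in the sebaceous gland. Dlk2 ranged from -1.75 to -1.05 in PITX1+ epithelium, -0.76 to 0.13 in wounds and -0.21 to 0.19 in the sebaceous gland. Between zones the ranges were -3.19 to -2.89 for Notch1, -1.37 to -1.20 for Jag1 and -4.69 to -4.23 for Dlk2, where 5 sections cannot reach the threshold (adjusted p 0.0751 to 0.0791, exact sign-flip). The difference between slides could not be fitted without the male Control section. Dlk2 is sparse on the male slide (299 transcripts), and on the female slide the source of its stromal level was not tested.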
